A study of Rattus norvegicus with 24 samples.

Results

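Mast cells are tissue-resident cells of the blood lineage that store proteases, histamine and heparin in granules and release them when IgE bound to their surface receptor is crosslinked. Rat mast cells fall into a connective tissue type, known for the chymases rMCP-1 and rMCP-5, tryptases and the carboxypeptidase Cpa3, and a mucosal type, known for the chymase rMCP-2. Bone marrow holds their progenitors, and mature mast cells lie along the inner surface of bone and in its marrow. The genes described here are Mcpt1l1 (rMCP-1, listed as mast cell protease 1-like 1), Mcpt2, Cma1 (chymase 1, also called Mcpt5), Cpa3 and Fcer1a, the IgE-binding chain of the high-affinity IgE receptor. They were chosen because Mcpt1l1 had the largest drop in bone from 4 to 10 months among the genes measured, and the probe sets taken were those whose only gene symbol in the array annotation is one of these names. Of the 5 genes, 4 had a probe set, 1 each, among 10411 genes on the array. No probe set carried the symbol Mcpt2 alone. The RefSeq gene table gives rMCP-I and rMCP-II alike as synonyms of the gene annotated as Mcpt1, so which chymase its probe set measures is not settled, and it is described below as Mcpt1.

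The study followed natural aging in male Sprague Dawley rats, untreated and with no genetic change. Bone, liver, kidney, pituitary, hypothalamus and spleen lymphocyte were each taken at the age of 4, 10, 18 or 24 months. Each of the 24 arrays (Affymetrix RAE230A) was hybridised with RNA pooled from 10 rats, 1 array for each tissue and age, and 1 set of rats gave all tissues of an age. A value is the MAS5.0 signal, the summarised brightness of the probes of a gene, scaled to a target of 500 on each array; a signal of 100 served as the floor below which a gene was not taken as measured. With 1 array per tissue and age, a change between ages within a tissue has no replicate check, and pooling hides how far single rats differed. The 4 bone arrays carried the osteoblast markers expected of bone. The summed signal of 9 osteoblast genes was 37908 to 114281 in bone and at most 12843 elsewhere, in kidney at 18 months. Bglap (osteocalcin) was at 7074 to 21439 in bone and reached 100 on 0 of the arrays outside it. Array medians lay between 213 and 309. The 18-month bone array stood apart among its faintest genes, whose 5th percentile of signal was 33.5, while the other 23 arrays had 9.13 to 15.7.

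Mcpt1l1 and Cma1 lie in the chymase locus of chromosome 15 (GRCr8), Cma1 at 33387351 to 33390133 and Mcpt1l1 at 33874239 to 33876895. The locus spans 520.2 kb from the start of Cma1 to the end of Ctsg (cathepsin G) and holds 12 protein-coding genes named Mcpt or Cma1. Mcpt1, the closest copy of Mcpt1l1 measured here, starts at 33841606 and ends 30.1 kb from it. Cpa3 lies outside the locus on chromosome 2 at 104641619 to 104673253, and Fcer1a on chromosome 13 at 88218427 to 88224723. GATA factors such as Gata2 are known regulators of mast cell genes, and the promoters of the genes are shown for that reason, together with that of Mcpt1 as the near copy. Each window runs from 250 bases before the annotated start to 50 after it (RefSeq, GRCr8), 5′ to 3′ on the strand of the gene. Capitals mark the letters GATA with A or T before them and A or G after them, on either strand, and no match overlapped another.
Mcpt1l1 (chr15:33876846-33877145, minus strand): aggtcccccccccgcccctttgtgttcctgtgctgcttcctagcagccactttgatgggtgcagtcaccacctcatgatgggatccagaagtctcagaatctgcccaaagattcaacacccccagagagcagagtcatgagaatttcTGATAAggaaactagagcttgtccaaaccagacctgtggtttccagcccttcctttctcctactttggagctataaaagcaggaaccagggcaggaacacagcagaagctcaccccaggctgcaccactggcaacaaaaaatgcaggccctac
Mcpt1 (chr15:33841356-33841655, plus strand): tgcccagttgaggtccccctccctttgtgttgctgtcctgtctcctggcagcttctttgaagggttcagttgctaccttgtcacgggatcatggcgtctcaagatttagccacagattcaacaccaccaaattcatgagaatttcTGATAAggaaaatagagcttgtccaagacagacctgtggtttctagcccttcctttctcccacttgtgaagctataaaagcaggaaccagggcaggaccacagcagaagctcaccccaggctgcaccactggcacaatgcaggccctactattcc
Cma1 (chr15:33390084-33390383, minus strand): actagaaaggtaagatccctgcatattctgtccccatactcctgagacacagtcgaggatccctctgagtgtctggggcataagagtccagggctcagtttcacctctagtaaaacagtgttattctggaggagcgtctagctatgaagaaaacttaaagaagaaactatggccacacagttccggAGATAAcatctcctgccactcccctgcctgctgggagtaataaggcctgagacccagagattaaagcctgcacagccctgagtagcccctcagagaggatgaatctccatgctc
Cpa3 (chr2:104673188-104673487, minus strand): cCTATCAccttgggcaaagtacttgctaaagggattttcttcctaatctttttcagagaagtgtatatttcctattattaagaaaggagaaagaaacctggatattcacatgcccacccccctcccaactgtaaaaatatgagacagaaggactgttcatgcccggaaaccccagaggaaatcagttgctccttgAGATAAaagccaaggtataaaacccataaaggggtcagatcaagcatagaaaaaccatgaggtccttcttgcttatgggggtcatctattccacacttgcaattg
Fcer1a (chr13:88224630-88224929, minus strand): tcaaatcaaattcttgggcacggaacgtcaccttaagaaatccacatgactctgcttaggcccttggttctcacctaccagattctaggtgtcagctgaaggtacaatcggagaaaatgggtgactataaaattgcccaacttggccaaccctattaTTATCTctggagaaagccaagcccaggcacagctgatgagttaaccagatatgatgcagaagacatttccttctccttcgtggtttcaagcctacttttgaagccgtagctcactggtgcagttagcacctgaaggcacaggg
At least 1 such match stood in the windows of all 4 measured genes, while 30.3% of 33469 rat promoter windows of the same length hold one. It began 103 bases before the start in Mcpt1l1, 64 in Cma1, 93 in Fcer1a, and 55 and 249 in Cpa3. Mcpt1 carried the match of Mcpt1l1 at 105 bases before its start, and these windows were identical at 245 of 317 alignment columns (77.3%, gaps counted as differences). The windows of Mcpt8, Mcpt9 and the tryptases Tpsab1 and Tpsb2, described below, held none of these letters. A match describes the letters of a window and does not show that a factor binds there.

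In bone, Mcpt1l1 had a signal of 2988 at 4 months, 252 at 10 months, 328 at 18 months and 444 at 24 months. The 4-month array was thus far above the later ones, and the drop to 10 months was 11.9-fold (-3.57 on the log2 scale), by which the gene was chosen. Cma1, the chymase of connective tissue mast cells, followed with 1427, 248, 409 and 760 in the same order. It was lowest at 10 months and was at 53.2% of its 4-month signal at 24 months. Cpa3, which trims peptides after the chymases have cut them, had 2333, 679, 798 and 599. It dropped 3.44-fold from 4 to 10 months and stayed near that level, at 34.2% of the 4-month signal at 18 months and 25.7% at 24 months. Fcer1a differed in course, with 430, 305, 217 and 407. Its largest and smallest bone signals were 1.99-fold apart, and it ended at 94.5% of the 4-month signal. From 4 to 10 months, 3 of the 4 genes dropped at least 2-fold with both signals at 100 or more, as did 5.84% of all genes measured on both arrays. Since the genes were chosen on that contrast, nothing is read from this count. No array repeats the 4-month pool, and fewer mast cells and less RNA per mast cell cannot be told apart in such pools.

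**Figure D1:**
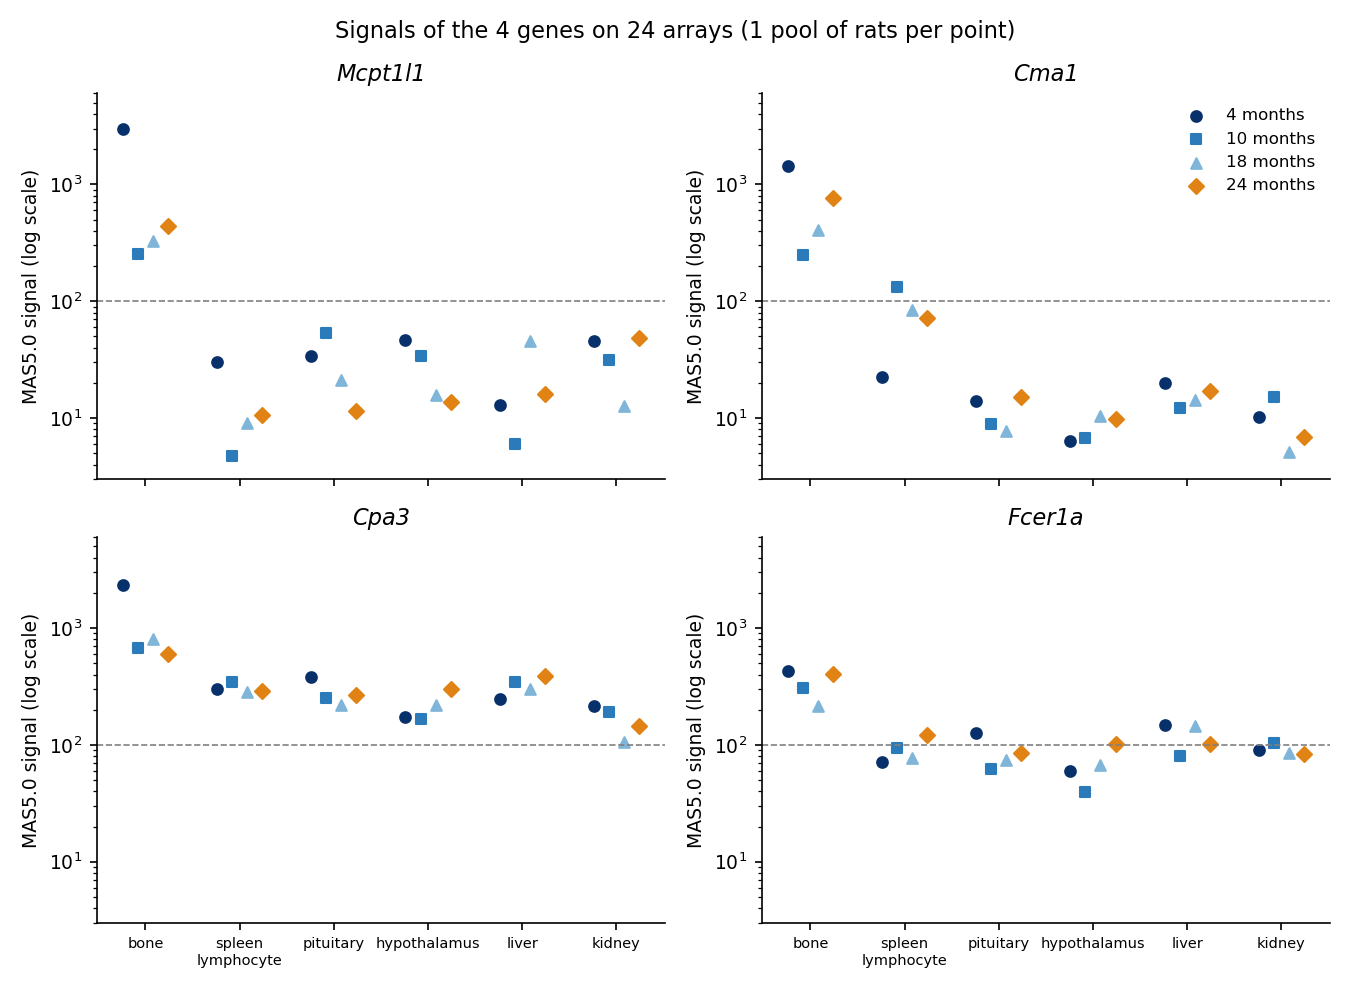
MAS5.0 signal (log scale) of Mcpt1l1, Cma1, Cpa3 and Fcer1a on the 24 arrays, grouped by tissue, with 1 point for each pool of rats and age; the dashed line is the floor of 100. The 4 bone points of each gene lie above its 20 points in other tissues, and the 4-month bone point of Mcpt1l1 stands at 2988 against 252 to 444 at later ages.

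Between the later ages of bone the chymases moved up and the receptor turned. From 10 to 18 months the log2 changes were 0.38 for Mcpt1l1, 0.72 for Cma1, 0.23 for Cpa3 and -0.49 for Fcer1a, and 0 of the 4 reached 2-fold, against 6.98% of genes higher and 1.80% lower. With the arrays centred on their medians they were 0.04 for Mcpt1l1 and -0.10 for Cpa3, so the direction of Cpa3 flips with the scaling. From 18 to 24 months they were 0.44, 0.90, -0.41 and 0.91 in the same order, again with 0 of 4 past 2-fold, against 1.83% of genes higher and 5.77% lower. After centring, Cma1 came to 1.20 and Fcer1a to 1.21, and after quantile normalization to 1.10 and 1.25, so both passed 2-fold with either scaling. The shares of genes above belong to the signals as deposited and do not apply to these calls. With either scaling a smaller part of the genes called was lower, as given further below. From 10 to 24 months, which leaves out the 18-month array, Cma1 was 3.06-fold higher, past 2-fold as were 0.610% of genes, with 0.712% lower. Over the same ages Mcpt1l1 went from 252 to 444 and Fcer1a from 305 to 407, short of 2-fold. Set against 4 months, Mcpt1l1 (-2.75) and Cpa3 (-1.96) were still more than 2-fold lower at 24 months and Cma1 (-0.91) and Fcer1a (-0.08) were not, where 6.50% of genes were lower and 4.71% higher. This contrast uses the 4-month array, and the changes from 10 to 18 and 10 to 24 months use the 10-month array. The genes were chosen on the drop between these arrays, and a low 10-month signal favours a later rise. Nothing is thus read from any of these changes.

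Bone stood above the other tissues for each gene at every age. Mcpt1l1 was below 100 on all 20 arrays outside bone, with its highest signal of 53.4 in pituitary at 10 months, so the lowest bone signal was at least 2.52-fold higher than in the other tissues, taken at the floor. Those 20 signals lie under the floor and have no order among the tissues. Cma1 reached 100 on 1 of the 20, in spleen lymphocyte at 10 months (133). Spleen lymphocyte, with 22.6 at 4 months, 133 at 10 months, 84.4 at 18 months and 72.1 at 24 months, was thus the only tissue besides bone to reach the floor. Fcer1a reached 100 on 7 of the 20 arrays, 3 of them liver. Its highest signal outside bone was 149 in liver at 4 months, against 217 for the lowest bone array. The ranges of the 5 other tissues overlapped one another for this gene.

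Cpa3 was the only one of the 4 with a signal of 100 or more on all 20 arrays outside bone, from 107 in kidney at 18 months to 386 in liver at 24 months. By median the order was bone (739), liver (322), spleen lymphocyte (297), pituitary (260), hypothalamus (196) and kidney (167). Each neighbour in that order below bone overlapped the next in range. The lowest bone array was 1.55 times the highest of the others. All 4 bone arrays lay above all 20 others for 4 of 4 genes, which holds for 5.87% of genes at 100 or more on the bone arrays; the 4-month bone array belongs to the contrast that chose the genes. For the bone arrays of 18 and 24 months alone, which that contrast did not use, it also held for 4 of 4, against 9.52% of genes. Mcpt1l1 was under 100 on all 20 others, so a bone signal past the floor settles either count for it. The same nearly holds for Cma1, at 100 or more on 1 of the 20.

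The level in bone was tested on arrays the choice did not use. They are of the same tissue, and choosing by a large drop in bone favours genes expressed there. The test is thus not fully independent of the choice. A limma model with terms for tissue and for age was fitted to log2 signals, those under 100 set to 100, over bone at 18 and 24 months and the 20 other arrays. The ages thus stand in for repeats of a tissue. Cpa3 was higher in bone by 1.54 ± 0.26 (SE) on the log2 scale (adjusted p = 8.40e-05) and Fcer1a by 1.48 ± 0.19 (adjusted p = 4.84e-06). These are the genes of the 4 that reached 100 on at least 2 of the arrays outside bone; of 9801 such genes 21.9% were higher in bone and 21.7% lower. Mcpt1l1 and Cma1 reached 100 on 0 and 1 of those 20 arrays, so they entered the fit only through the bone arrays where they are high, and their differences of 1.93 and 2.48 are given as a distance from the floor with no test. Over all 9872 genes fitted, 22.2% were higher and 21.5% lower. Centring on the median turned those 2191 higher and 2126 lower genes into 1620 and 2557, and Cpa3 and Fcer1a kept their calls. Without the 18-month bone array the difference of Cpa3 was 1.18 and that of Fcer1a 1.96, and without the 24-month array 1.91 and 1.01.

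**Figure D2:**
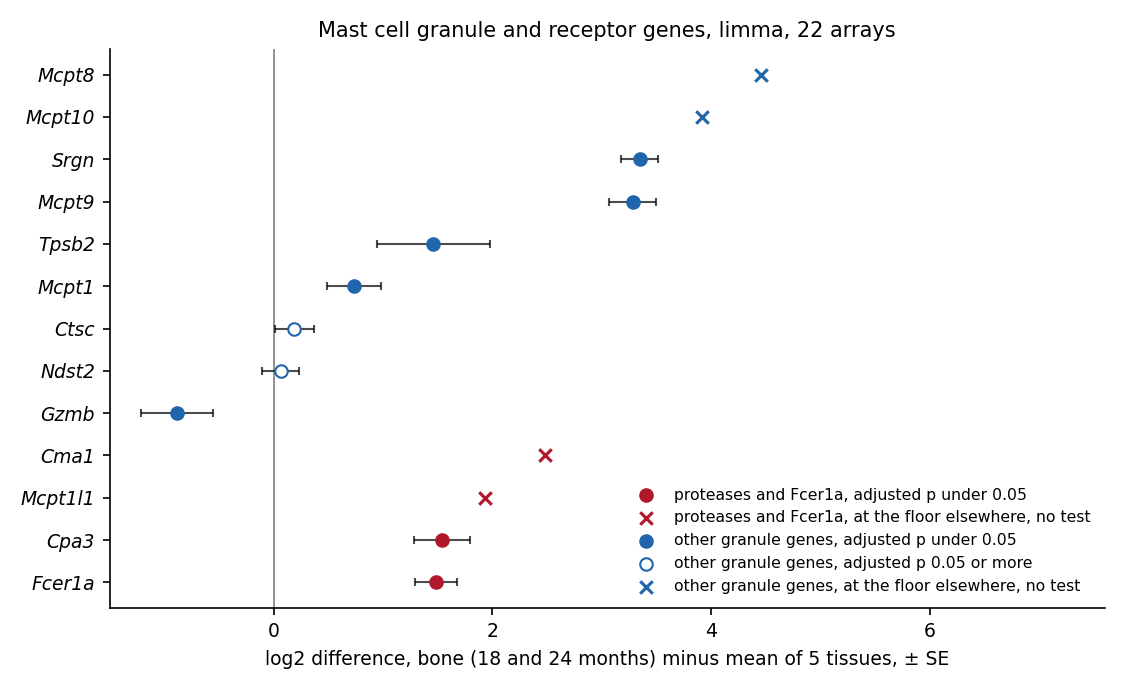
Log2 difference of bone (18 and 24 months) from the mean of the 5 other tissues, from limma over 22 arrays, with bars of 1 standard error, for Mcpt1l1, Cma1, Cpa3 and Fcer1a (red) and 9 further granule genes (blue). Open circles did not pass, and crosses mark genes at the floor of 100 on nearly all arrays outside bone, which have no test; Cpa3 (1.54) and Fcer1a (1.48) lie near Tpsb2 (1.46) and below Mcpt9 (3.28).

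Outside bone the drop from 4 to 10 months was looked for in the 5 other tissues. Mcpt1l1 and Cma1 had 0 of 15 pairs of consecutive ages with both signals at 100 or more, so no change can be given. Cpa3 had 15 of 15, with log2 changes from -0.83 to 0.48, and Fcer1a had 1 of 15, at -0.53. From 4 to 10 months Cpa3 went from 173 to 165 in hypothalamus, 380 to 252 in pituitary, 303 to 342 in spleen lymphocyte, 246 to 343 in liver and 213 to 190 in kidney, down past 2-fold in 0 of 5. In that order, 2.50, 1.19, 1.72, 1.41 and 0.600% of genes dropped past 2-fold. Over the 5 tissues, Cpa3 changed by -0.03 ± 0.20 (SE) from 4 to 10 months (adjusted p = 0.998) and Fcer1a by -0.17 ± 0.13 (adjusted p = 0.985). For the mean of the later ages against 4 months the values were -0.07 ± 0.16 for Cpa3 (adjusted p = 0.958) and -0.12 ± 0.10 for Fcer1a (adjusted p = 0.895). Fcer1a reached 100 on 7 of these 20 arrays and was set to 100 on the others. The floor thus limits both its change and its SE, and a drop below it would not be seen. limma called 0 of 9801 genes (0%) in either comparison, where 484 and 613 genes had an unadjusted p under 0.05. Spleen lymphocyte against the mean of the 4 tissues left gave 0.40 ± 0.18 for Cpa3, which did not pass (adjusted p = 0.0602, 0.0091 to 0.198 over the alternatives, 4 of 13 of which passed), and -0.03 ± 0.11 for Fcer1a (adjusted p = 0.831). In that comparison 30.4% of genes were higher and 34.4% lower.

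Other granule proteases in bone differed in the age of their highest signal. Mcpt1, the near copy of Mcpt1l1 on the same locus, had bone signals of 738, 154, 203 and 233 at 4, 10, 18 and 24 months. The tryptase Tpsb2 (rMCP-6) had 1230, 355, 424 and 474, and the tryptase Tpsab1 (rMCP-7) had 551, then 61.0, 74.6 and 39.2, which are under the floor. Thus both tryptases and Mcpt1 were highest at 4 months, like Mcpt1l1, Cma1 and Cpa3. Mcpt8, whose mouse counterpart marks basophils, had 1313, 874, 1476 and 3270. Its close relatives Mcpt9 and Mcpt10 had 460, 1128, 777 and 1717, and 1715, 1180, 969 and 2364. These 3 were highest at 24 months, and from 18 to 24 months each rose past 2-fold, by 1.15, 1.14 and 1.29 on the log2 scale. Over all genes 1.83% did so, and this contrast rests on the 18-month array that stood apart. From 10 to 24 months Mcpt8 and Mcpt10 passed 2-fold and Mcpt9 did not, where 0.610% of genes were higher. A probe set annotated to Mcpt8l2, Mcpt9, Mcpt10 and Mcpt8 together went from 3600 at 4 months to 10759 at 24 months. Near copies in this locus may share probes, and how much of a signal comes from a copy was not tested.

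**Figure D3:**
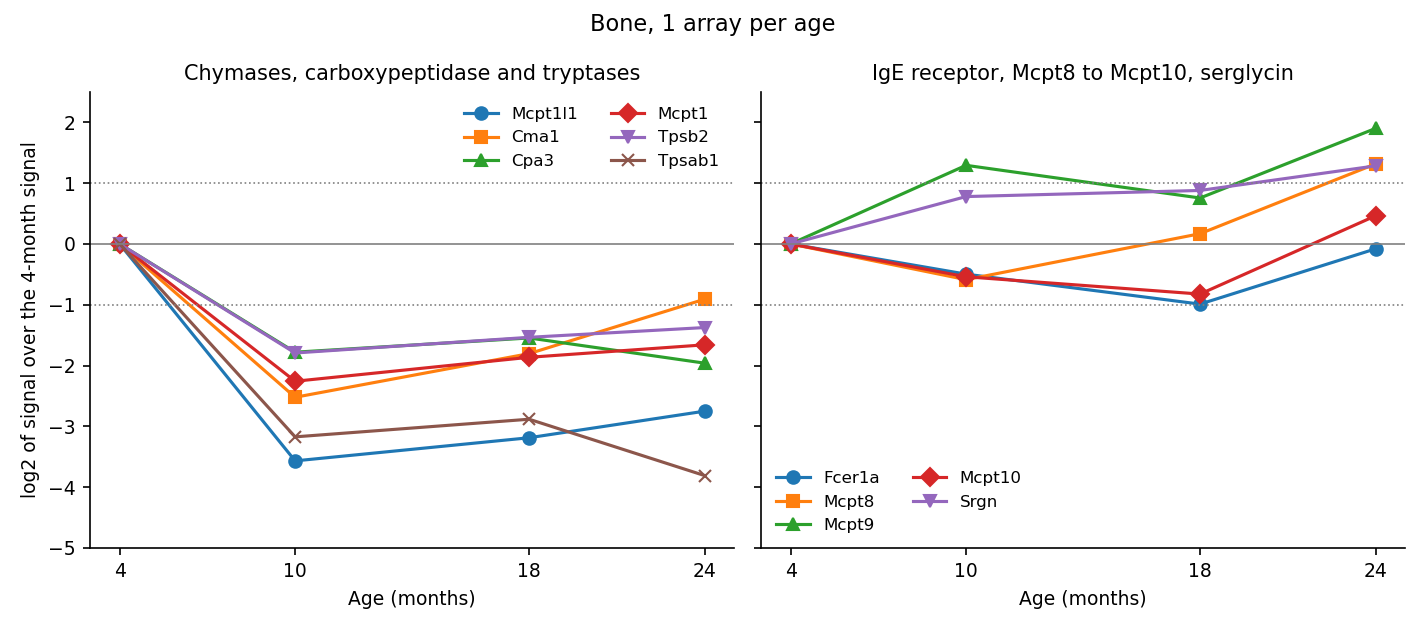
Log2 of the bone signal over that at 4 months against age, 1 array per age, for chymases, the carboxypeptidase and tryptases (left) and for Fcer1a, Mcpt8, Mcpt9, Mcpt10 and serglycin (Srgn, right); dotted lines mark 2-fold. All 6 genes on the left are below their 4-month signal at each later age, with Tpsab1 under the floor of 100 there, while Mcpt8, Mcpt9, Mcpt10 and Srgn end above it.

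Of 20 further granule genes listed, 11 had a probe set and 8 were at 100 or more on both bone arrays of 4 and 10 months. Of these, Mcpt1 (-2.26 on the log2 scale) and Tpsb2 (-1.79) dropped past 2-fold and Mcpt9 (1.29) went up (5.84% and 3.84% over all genes), with a list median of -0.50 against -0.01 over all genes. Srgn, the proteoglycan core that holds granule proteases, was at 7229, 12409, 13306 and 17609, highest at 24 months. Gzmb, a granzyme of cytotoxic lymphocytes, was at 44.4, 169, 146 and 176 in bone and far higher in spleen lymphocyte (1625 to 8394). Of 7 granule genes that reached 100 on at least 2 arrays outside bone, limma called 4 higher in bone at 18 and 24 months and 1, Gzmb, lower (-0.88 ± 0.33 (SE), adjusted p = 0.0376), against 21.9% higher and 21.7% lower over all such genes. The higher ones were Srgn (3.35), Mcpt9 (3.28), Tpsb2 (1.46) and Mcpt1 (0.74), each against the mean of the 5 tissues. At these ages Srgn and Mcpt9 lay above all 20 other arrays, and Tpsb2 and Mcpt1 did not. Mcpt1 had 203 and 233 in bone, within the 175 to 383 of spleen lymphocyte. Tpsb2 had 424 and 474, below the 483 of kidney at 4 months. The median of the 7 was 0.74, against -0.01 over all such genes. Mcpt8 and Mcpt10 were under 100 on all 20 arrays outside bone, and their lowest bone signals were 8.74 and 9.69 times the floor, with no test. Mcpt4, another chymase of the locus, was under 100 on all 24 arrays, at most 29.5.

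Among the partners of Fcer1a in the IgE receptor and the relay behind it, no gene dropped past 2-fold from 4 to 10 months. Of 17 genes listed for the IgE receptor and its signalling, 15 had a probe set, 13 were measured in bone at 4 and 10 months, and 0 passed 2-fold, with a median change of 0.16. Ms4a2, the beta chain, had low signals of 91.3, 104, 172 and 153. Fcer1g, the signalling gamma chain that other Fc receptors use too, had 6352, 8892, 8615 and 10411. The kinase Syk, which the gamma chain recruits, had 1937, 1563, 1737 and 1981. At 18 and 24 months 13 of 15 were higher in bone than in the mean of the other tissues and 0 lower (21.9% and 21.7% of all genes that reached 100 on at least 2 arrays outside bone), among them Syk (2.40), Fcer1g (1.70) and Ms4a2 (0.58). In spleen lymphocyte 13 of the 14 that reached 100 on at least 2 arrays of the 4 other tissues were higher there and 0 lower, against 29.9% higher and 34.9% lower over 9661 such genes. The summed signal of the 15 genes was 23929 to 31998 in spleen lymphocyte, above the 16270 to 20546 of bone.

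Of 14 genes for making, storing and releasing mast cell mediators with a probe set, 13 were measured at 4 and 10 months, 3 rose past 2-fold and 0 fell, with a median of 0.46, where 3.84% of all genes rose. They were Alox5, 5-lipoxygenase (228, 727, 679 and 549), its partner Alox5ap (575, 1857, 1642 and 1987) and the secretory GTPase Rab27a (121, 329, 265 and 367). Hdc, which makes histamine, was at 297, 459, 365 and 498 and did not pass 2-fold. Among growth and identity genes, 12 of 15 were measured, and Gata1 (1.25), its cofactor Zfpm1 (1.33) and Tal1 (1.15) rose while 0 fell (3.84% and 5.84% over all genes); all are also genes of the red cell lineage. Kit, the receptor for stem cell factor on which mast cells depend, had signals of 107, 131, 179 and 89.1, near the floor at each age. Gata2 was at 501, 554, 773 and 696, and Mitf, another regulator of mast cell genes, at 349, 177, 262 and 131, neither past 2-fold from 4 to 10 months. In limma 10 of 13 mediator genes and 9 of 13 growth and identity genes that reached 100 on at least 2 arrays outside bone were higher in bone at 18 and 24 months, with 1 and 0 lower, against 21.9% higher and 21.7% lower over all such genes. Among them were Alox5ap (3.84), Alox5 (2.61), Hdc (1.52) and Hpgds, which makes prostaglandin D (1.51), and Tal1 (4.74), Gata1 (3.29) and Gata2 (0.75). Kit did not pass, at 0.38 (adjusted p = 0.083).

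Markers of other cells moved on the same bone arrays, and their part in the result was not tested. From 4 to 10 months 3 of 9 osteoblast genes, 3 of 4 osteoclast genes and 5 of 7 cartilage genes dropped past 2-fold and 0 rose, where 5.84% of all genes dropped and 3.84% rose. The summed osteoblast signal went from 114281 to 63911, 47859 and 37908 over the 4 ages, the osteoclast sum from 38102 to 16966, 9791 and 10280, and the cartilage sum from 26940 to 7404, 3174 and 1585. These 3 lists kept below their 4-month sums to 24 months. The sum of the 4 mast cell genes went from 7179 to 1484, 1751 and 2210. They were chosen on the drop from that 4-month array, so nothing is read from their staying below it. Going up from 4 to 10 months were 4 of 7 neutrophil genes, 3 of 5 erythroid genes and 7 of 9 measured skeletal muscle genes, of which 1 dropped. Of the basophil and eosinophil list, Prg2, the major basic protein of eosinophils, rose from 6204 to 16703 and Cebpe from 236 to 839, with 2 of 2 measured genes higher. The sum of that list went from 6611 to 17905, so Prg2 made up most of it. The summed neutrophil signal went from 50280 at 4 months to 142949 at 24 months, and the skeletal muscle sum from 5904 to 13062, 13584 and 9834. The macrophage list (1 of 5 lower), the fibroblast and adipocyte list (2 of 7 lower and 2 higher) and the T cell list (0 of 4) had fewer such genes, and the 1 B cell gene measured did not pass 2-fold. On the bone arrays 1 skeletal muscle gene, 1 T cell gene and 1 fibroblast or adipocyte gene stayed under 100 at all ages, and 0 of the osteoblast, osteoclast, cartilage, neutrophil and erythroid genes did. The log2 ratio of the 3′ to the 5′ probe set of beta-actin in bone, which is high in degraded RNA, was 1.56 at 4 months, 0.48 at 10 months, 1.12 at 18 months and 1.31 at 24 months. In a fit of tissue and age over all arrays, the limma weights of the bone arrays were 0.312, 2.58, 0.295 and 1.38 in that order, and a change in bone alone lowers them too.

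**Figure D4:**
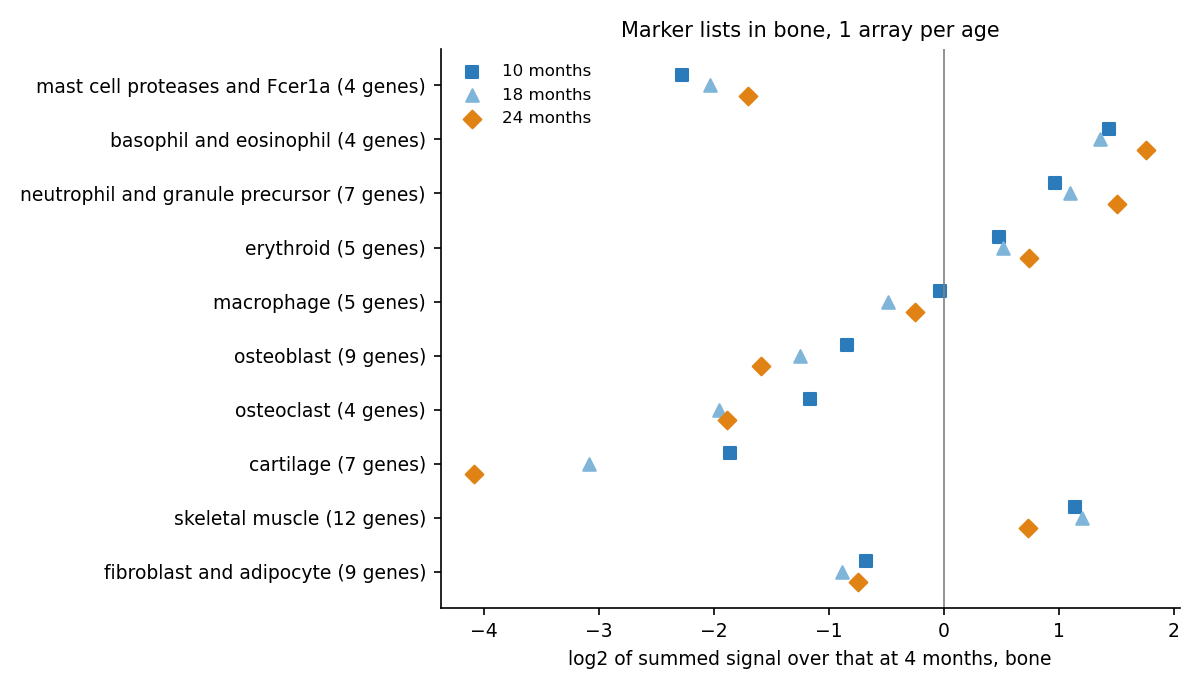
Log2 of the summed signal of each marker list in bone over its sum at 4 months, with 1 point each for 10, 18 and 24 months and the number of genes in brackets. The 4 mast cell genes, chosen on the drop from the 4-month array, lie left of 0. So do the osteoblast, osteoclast, cartilage, macrophage and fibroblast lists, and the basophil and eosinophil, neutrophil, erythroid and skeletal muscle lists lie right of it. A sum follows the brightest genes of its list, and single genes can move otherwise.

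The gene nearest to Mcpt1l1 in pattern over the 24 arrays was Cma1. By Pearson correlation of log2 signals floored at 100 over 10061 genes, the correlation with Cma1 was r = 0.97, followed by Phex of osteocytes (0.97), Jdp2 (0.96), the cartilage protein Cnmd (0.96), Postn (0.95), Mepe (0.94), Tnc (0.93), Sppl2b (0.93), Pdgfrl (0.93) and Comp (0.93). Arrays outside bone sit at the floor for most of these genes, and the 4-month bone array carries much of the rest. Without it, r with Mcpt1l1 was 0.99 for Cma1, 0.96 for Mepe and 0.92 for Postn. The rest had 0.76 (Sppl2b) to 0.87 (Phex). Over the 4 bone arrays alone r was 0.90 for Cma1, 0.90 for Phex and 0.92 for Jdp2. After 10 months the bone courses of Phex and Cma1 parted. Phex went on down from 398 at 10 months to 229 and 199, while Cma1 went up from 248 to 409 and 760. For Cma1 the nearest after Mcpt1l1 were Mmp9 (0.95) and Mepe (0.95). For Cpa3 they were the lysosomal enzymes Gusb (0.90) and Ctsz (0.89) and Comp (0.87), and for Fcer1a Mcpt10 (0.96), Mmp9 (0.95) and Rpl3l (0.94). Among the 4 genes themselves, r ran from 0.82 (Cpa3 with Fcer1a) to 0.97 (Mcpt1l1 with Cma1). These values describe 24 arrays that share tissues, rats and the floor, and carry no test.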

How the data were processed

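Total RNA of 6 tissues of male rats at 4 ages was measured on 24 Affymetrix RAE230A arrays, 1 per tissue and age, each with a pool of 10 rats. The authors summarised the scanned probes with MAS5.0 (version not given in the sources used here) and scaled each array globally to 500. The deposited values are linear intensities, 1 signal per probe set, and were used without further normalization. Detection calls were not used; a signal of 100 stood in for them. Groups came from the sample titles.

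Of 15866 probe sets other than 57 controls, the array annotation gave 12783 a single gene symbol, 312 several and 2771 none; the last 2 kinds named no gene. For 1868 of 10411 genes with several probe sets, the one at 100 or more on the most arrays was kept, with ties going to the higher mean. Between 75.9 and 82.3% of genes reached 100 on an array, and the number of arrays limits the precision. Gene positions and promoters came from RefSeq (GRCr8); the probes themselves were not placed on the genome.

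A change between ages was called at 2-fold with 100 or more on both arrays, without a test. limma was run with terms for tissue and for age, on log2 signals of which those under 100 were set to 100, for genes at 100 or more on at least 2 arrays, with Benjamini-Hochberg adjustment over all genes at 0.05. Arrays of a tissue at different ages stood in for repeats in comparisons between tissues, and the tissues of an age did so between ages. The p-values thus measure the spread left after the tissue and age terms, not that between rats. The bone arrays of 4 and 10 months, on which the genes were chosen, entered no main test. Counts and p-values between tissues are given for genes that also reached 100 on at least 2 of the arrays compared with, a limit set after seeing the data. The fits were tested on simulated data, made only from genes at 100 or more on at least 50% of the arrays, with independent noise per array. Those data do not cover genes near the floor or rats shared between tissues. Alternatives were other floors and fold limits, a pseudocount of 50, quantile normalization, median centring, the mean over probe sets, other filters, array weights, all 4 bone arrays, and leaving out arrays, tissues or ages. The genes and lists were chosen with earlier results of these data known. Named in the text are the 4 genes, members of 4 mast cell lists called in bone from 4 to 10 months or in a limma fit, 1 to 4 members of lists of other cells, and the genes nearest by correlation (10 for Mcpt1l1, 3 for the others). Outside this rule, Kit, Mitf, Mcpt4, Ndst2, Mcpt3, Ctsc and the promoter motif were chosen with their values seen. Python 3.11.15, numpy 2.4.6, pandas 2.3.3, matplotlib 3.10.9, R 4.3.3 and limma 3.58.1 were used.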

Additional observations from a re-analysis of the deposited data

Results flagged for a closer look

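Within the 4 arrays of a tissue, the gap of the highest or lowest signal to its nearest neighbour was set against the whole range on the log2 scale, for the 4 genes and the granule list, although these arrays differ in age. Of 56 sets of 4 arrays with a signal of 100 or more, 2 had a gap past the critical value, and chance gives about 1 in 20. Gzmb in bone was far lower at 4 months than at later ages (gap of 0.864 of the range), with a signal of 44.4. Ctsc, which activates granule proteases, stood apart in the hypothalamus at 24 months (gap of 0.843). None of the 4 mast cell genes had such a gap in any tissue measured.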

How the results depend on the processing

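Against the other tissues, Cpa3 was higher in bone in all 19 alternatives in which it was fitted, by 1.18 to 1.94 on the log2 scale. Fcer1a was higher in all 18, by 0.57 to 1.96. With more than 1 bone array in the fit, both had an adjusted p under 0.05 in limma. The fit with all 4 bone arrays gave the 1.94 of Cpa3. It brings back the arrays on which the genes were chosen and is no support. The distances of Mcpt1l1 and Cma1 from the floor, which carry no test, ran from 0.93 to 2.93 and 1.48 to 3.35, lowest with a floor of 200 and highest with one of 50. With 1 bone array left out, Mcpt1l1 reached 100 on too few arrays to be fitted, and a fit without that filter, added after seeing the data, gave 1.71 and 2.15; 3 of the genes have no value where 50% of the arrays must reach 100. The genes called in this comparison (4317) numbered 2993 to 4689 with arrays or tissues left out. For the later ages outside bone, 0 calls became 2 with that filter and 1 with array weights. In bone, the genes called from 4 to 10 months (753) fell to 210 at 3-fold. Those from 10 to 18 months (682) came to 1226 and 194 with floors of 50 and 200, 96 at 3-fold and 415 with a pseudocount of 50, and those from 18 to 24 months (595) to 1071, 175, 67 and 329. The share of lower genes was 20.5% from 10 to 18 months, 48.0% after quantile normalization and 66.2% after centring, and 76.0%, 49.0% and 32.1% from 18 to 24 months; the cause was not tested. The changes of the 4 genes from 4 to 10 months kept their direction and call in the 7 alternatives. In comparisons between tissues, the age term of the fits already matches the tissues of an age, which came from the same rats. No paired analysis was possible beyond it because each tissue and age has 1 array. Array signals give no counts, so faint genes such as Mcpt1l1 outside bone have only a bound.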

Other observations

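Mcpt3, a chymase of the same locus that was looked at after its values were seen, had bone signals of 107, 73.7, 306 and 53.2 at 4, 10, 18 and 24 months, highest on the array whose lowest signals were raised. In spleen lymphocyte, Mcpt1 was at 240, 356, 383 and 175 over the same ages, higher than the mean of the 4 other tissues outside bone by 1.25 ± 0.18 (SE) on the log2 scale in limma (adjusted p = 8.83e-06).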
